A study of Homo sapiens with 12 samples.

Results

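The proteasome genes described here are the 48 entries, of 56337 gene entries in the deposited table, whose symbol begins with PSM followed by a letter from A to G and a number. They were chosen by name alone and comprise 19 genes of the proteolytic core, 17 of the regulatory cap, 7 assembly chaperones and 5 activators or inhibitors. Levels are FPKM, fragments counted per transcript, scaled by transcript length and by the mapped fragments of the library, in HEK293T cells, a wild type human embryonic kidney line, grown in RPMI with 10% serum. The 4 groups had 3 libraries each. Ctrl received neither agent, BafA1 received bafilomycin A1 at 10 nM for 24 h, FAC received ferric ammonium citrate at 0.1 mg/ml in the 24 h before that step, and Combo received both. Bafilomycin A1 inhibits the V-ATPase that acidifies lysosomes, and ferric ammonium citrate is a soluble iron salt, so the design compares V-ATPase inhibition with and without added iron. The labels number the libraries without saying that they came from separate cultures, so p-values measure the spread between these libraries, which may be technical.

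The proteasome is the protease that degrades ubiquitin-tagged proteins in the cytosol and nucleus. Its core is a barrel of stacked rings: the outer alpha rings gate the entrance and the inner beta rings hold the catalytic sites. The cap binds ubiquitin chains, removes them and feeds the unfolded substrate into the core, through a base that contains a ring of ATPases and a lid that contains the deubiquitinase. Dedicated chaperones assemble the core and the base, and alternative activators can occupy the ends of the core in place of the cap. When proteasome activity falls short, the transcription factor NRF1, encoded by NFE2L1, is known to raise proteasome genes as a group.

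Of the 48 genes, 43 averaged 1 FPKM or more across the libraries and were among the 13682 genes tested. Changes are differences of log2(FPKM + 1) with limma standard errors, and a gene was called at an adjusted p under 0.05 by limma with Benjamini-Hochberg adjustment over all genes tested. The genes below the minimum were PSMA8, PSMB8, PSMB9, PSMB11 and PSMD5. Low values pointed to a depth of 34.5 to 37.75 M fragments per library, an estimate only, since 52.4% to 67.0% of those values fell within 0.2 of a whole number of fragments. The sum of all FPKM was 600261 to 604483 in BafA1 and 634935 to 651311 in the other groups. Of 6 genes listed as HEK293T markers, 5 were above the minimum and PAX2 was below it at a mean of 0.641 FPKM. The summed level of the 6 was 492 to 500.2 FPKM in Ctrl, 912 to 919 in BafA1, 478 to 490.03 in FAC and 727 to 733 in Combo, and its part in the results was not tested. PTPRC and CD3E, which mark blood cells, had at most 0.10 and 0.040 FPKM. There were 627 entries at 0 in the 6 libraries of one FAC side and at 1 FPKM or more in the other 6, and 0 of them were proteasome genes. In comparisons across FAC, a difference in processing between the sides cannot be told apart from FAC itself.

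In Ctrl the 14 tested constitutive core genes had a median of 206 FPKM, from 92.4 for PSMB2 to 432 for PSMA4, a 4.67-fold span although each subunit is present in the barrel in equal number. Cap genes were lower, with a median of 112 FPKM and a 2.84-fold span from PSMC2 at 72.3 to PSMD4 at 206. Among the low genes, PSMA8, a testis form of an alpha subunit, stayed at or below 0.050 FPKM in every library, and PSMB11, the thymus-specific beta subunit, was listed at 0 throughout. The inducible catalytic subunits PSMB8 and PSMB9 reached at most 0.17 and 0.49 FPKM, whereas the inducible PSMB10 was at 20.5 to 23.4 FPKM in Ctrl. PSMD5, a chaperone of the base, was listed between 0 and 0.10 FPKM in all 12 libraries, while its partners PSMD9 and PSMD10 were near 48 and 108 FPKM in Ctrl. The annotation used for counting is not given, and its part in the PSMD5 values was not tested.

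BafA1 without FAC lowered most proteasome genes. Of 43 tested, 35 fell, 2 rose and 6 were not called, and the median change was -0.37 against -0.04 over all genes tested. Over all genes, 37.6% were called lower and 29.5% higher. All 3 BafA1 libraries lay below all 3 Ctrl libraries for 36 proteasome genes, against 38.3% of all genes, and above them for 4, against 30.4%. The summed level of the 48 genes went from 0.9801% to 0.997% of all FPKM in Ctrl to 0.8095% to 0.8254% in BafA1. In bulk RNA, fewer cells of a kind and less RNA per cell cannot be told apart.

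**Figure D1:**
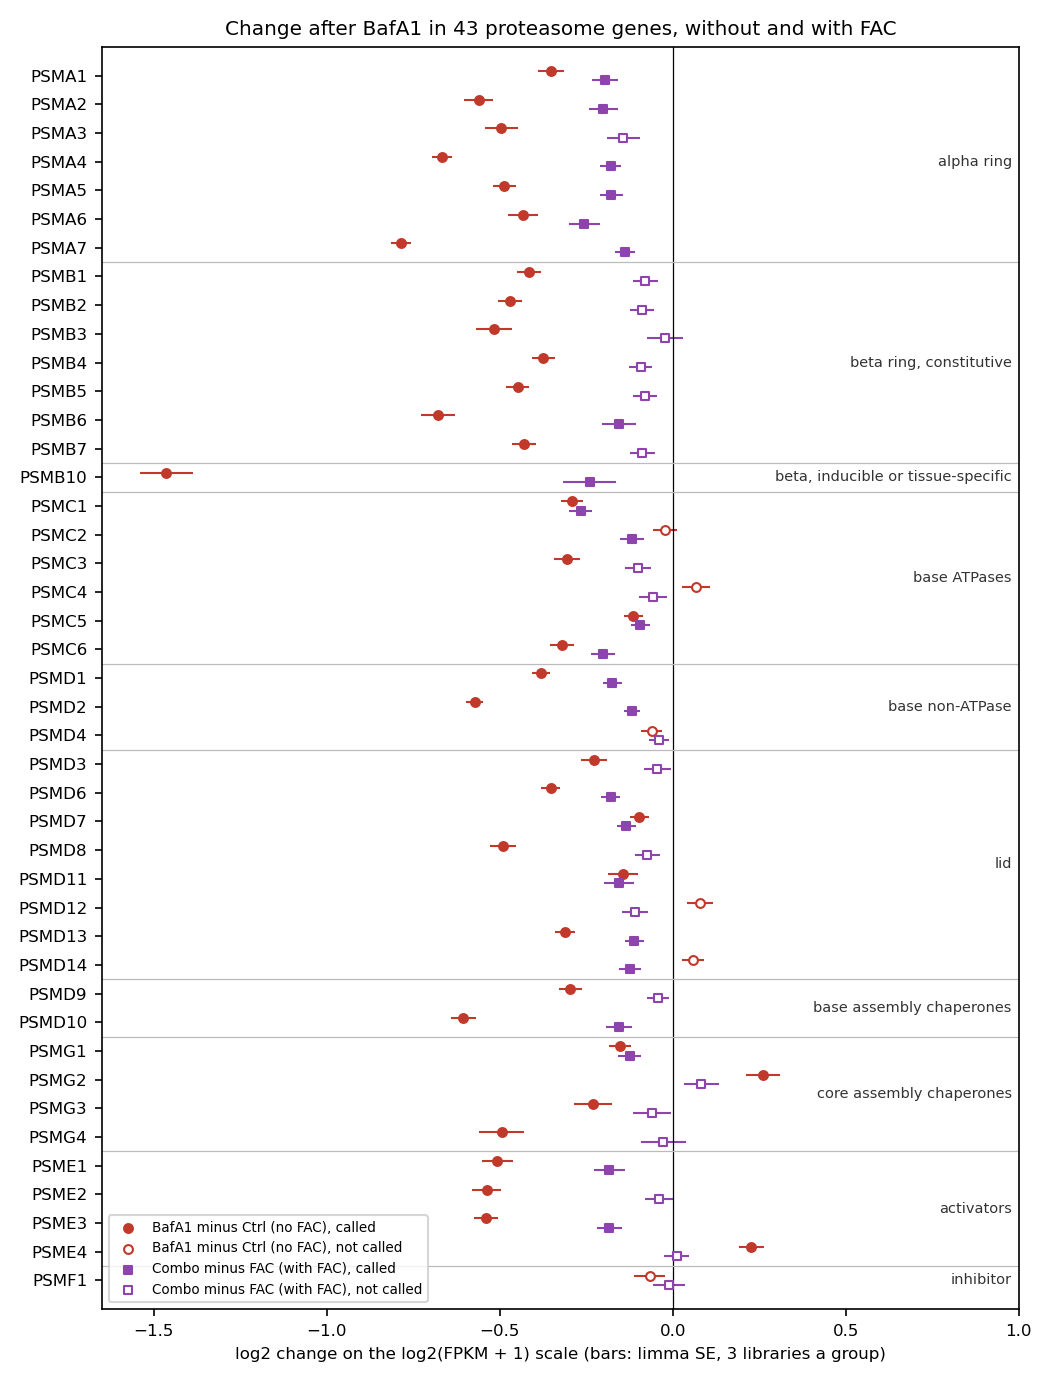
Log2 change after BafA1 for the 43 tested proteasome genes, grouped by class, without FAC (circles) and with FAC (squares). The x axis is the difference of log2(FPKM + 1), bars are limma standard errors, and open symbols were not called. Core genes lie between -1.46 and -0.35 without FAC and between -0.26 and -0.02 with it.

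The core fell as a whole: 15 of 15 tested core genes were lower in BafA1 than in Ctrl, with no overlap between the groups. The 7 alpha ring genes fell by 0.35 to 0.79 on the log2 scale. PSMA7 had the largest change of the ring, with 216, 219 and 213 FPKM in the Ctrl libraries and 127, 121 and 126 in the BafA1 libraries. Each BafA1 library was well below each Ctrl library, a change of -0.79 ± 0.029 (limma adjusted p = 4.38e-10). The most abundant core gene, PSMA4, fell from 443, 431 and 420 FPKM to 267, 273 and 274 (-0.67 ± 0.030, limma adjusted p = 2.15e-09). PSMA1 was the least changed of the ring at -0.35 ± 0.038.

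Among the 7 constitutive beta genes the fall ranged from 0.37 for PSMB4 to 0.68 for PSMB6. PSMB6, the caspase-like catalytic subunit, was at 152, 152 and 151 FPKM in Ctrl and at 95.5, 100 and 87.9 in BafA1 (-0.68 ± 0.049, limma adjusted p = 1.43e-07). PSMB5, the chymotrypsin-like subunit and the main target of clinical proteasome inhibitors, was at 196, 201 and 196 FPKM in Ctrl and at 145, 141 and 147 in BafA1. PSMB7, the trypsin-like subunit, was at 181, 181 and 179 FPKM against 134, 141 and 126. The last 2 changed by -0.45 ± 0.034 and -0.43 ± 0.036, and the groups of all 3 catalytic genes were separate.

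PSMB10 fell most of all 43 genes. This subunit takes the place of PSMB7 in the immunoproteasome, the form that interferon induces. The Ctrl libraries had 22.1, 23.4 and 20.5 FPKM and the BafA1 libraries 6.86, 7.17 and 8, which is a fall of 66.6% in the mean and -1.46 ± 0.077 on the log2 scale (limma adjusted p = 8.02e-09). As a share of PSMB7 plus PSMB10, it went from 10.9% ± 0.591 (SD, n = 3) in Ctrl to 5.23% ± 0.628 in BafA1. Of 7 tested genes on a list of interferon-regulated genes, 5 fell and 1 rose with BafA1, against 37.6% and 29.5% of all genes. The 5 included IFIT1 (-1.67), TAP1 (-0.70) and B2M (-0.25). ISG15 from that list rose by 1.58, IRF1 was at 0.01, and the summed level of the 9 listed genes was 438 to 468 FPKM in Ctrl and 366 to 374 in BafA1. Their part in the PSMB10 change was not tested. Another entry on the same strand overlaps PSMB10 at a mean of 1.87 FPKM.

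The cap responded less evenly than the core. Of 17 genes, 12 fell, 0 rose and 5 were not called, with a median change of -0.23. PSMD2, a scaffold of the base on which shuttle receptors dock, fell most: 199.9, 195 and 195 FPKM in Ctrl became 134, 132 and 130 in BafA1 (-0.57 ± 0.024, limma adjusted p = 1.12e-09). PSMD8 of the lid fell from 148, 146 and 142 FPKM to 105, 104 and 100 (-0.49 ± 0.037, limma adjusted p = 1.84e-07). Neither gene's groups overlapped. Of the 6 ATPases of the base, 4 fell, PSMC6 the most, from 114, 112 and 111 FPKM to 86.9, 90.4 and 91.6 (-0.32 ± 0.034), and PSMC2 and PSMC4 were not called.

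The 5 cap genes without a call were PSMC2, PSMC4, PSMD4, PSMD12 and PSMD14. PSMD14, the deubiquitinase that releases ubiquitin chains from substrates, was at 84.3, 81.8 and 84.5 FPKM in Ctrl and 86.7, 90.3 and 84.3 in BafA1. Those groups overlapped, and the change of 0.06 had a 95% interval from -0.01 to 0.13. PSMD4, a ubiquitin receptor, went from 209, 204 and 204 FPKM to 197, 203 and 191, with an interval from -0.13 to 0.00. PSMD12 was at 104, 99.2 and 100 FPKM in Ctrl and at 107, 108 and 105 in BafA1, with an interval from -0.0021 to 0.16. These calls depended on scaling. After scaling by the median of ratios, or to a sum of 1 M per library (TPM), PSMC4, PSMD12 and PSMD14 were called higher and PSMC5, PSMD7, PSMD11 and PSMG1 lost their calls. Quantile normalization gave the same changes and also called PSMD4 higher, so the totals were 5 higher and 31 lower, or 6 higher and 31 lower, in place of 2 and 35.

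Assembly chaperones went both ways. PSMD10, a base chaperone also known as gankyrin, fell from 109.9, 106 and 107 FPKM to 68.1, 73.7 and 69.6, with no overlap (-0.60 ± 0.037, limma adjusted p = 3.28e-08). PSMD9 fell by 0.30 from 48.5, 48.3 and 48.3 FPKM to 39.4, 39.4 and 38.9. Of the core chaperones, which act as the pairs PSMG1 with PSMG2 and PSMG3 with PSMG4, 3 fell and 1 rose. PSMG2 rose from 33.3, 34.9 and 31.8 FPKM to 41.0, 41.6 and 37.8 (0.26 ± 0.050, limma adjusted p = 0.000587). Its partner PSMG1 fell from 182, 183 and 173 FPKM to 158, 167 and 160 (-0.15 ± 0.032, limma adjusted p = 0.00119), a call lost under the 3 other scalings. PSMG3 fell by 0.23, from 62.4, 63.1 and 57.5 FPKM to 52.3, 51.0 and 52.2, and PSMG4 by 0.49, the latter from 18.04, 19.9 and 16.4 FPKM to 11.8, 12.6 and 13.2.

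Among the activators, PSME1 and PSME2, the interferon-inducible subunits that form a joint ring, fell together, as did PSME3, their nuclear relative. PSME1 was at 43.2, 40.0 and 37.9 FPKM in Ctrl and 27.6, 27.8 and 29.0 in BafA1. PSME2 was at 57.6, 55.8 and 52.3 FPKM against 37.2, 37.2 and 38.8. PSME3, the most abundant activator, was at 244, 238 and 229 FPKM against 163, 159 and 167. The changes were -0.51 ± 0.045, -0.54 ± 0.042 and -0.54 ± 0.035, with every BafA1 library below every Ctrl library. PSME4, a large single-chain activator, rose from 34.5, 32.7 and 33.5 FPKM to 39.7, 39.0 and 39.7 (0.23 ± 0.036, limma adjusted p = 0.000129), also without overlap. The ratio of PSME3 to PSME4 was 7.06 ± 0.212 (SD, n = 3) in Ctrl and 4.12 ± 0.0644 in BafA1. PSMF1, an inhibitor of the core, overlapped between the groups at 112, 119 and 124 against 119, 113 and 106 FPKM, and the 95% interval of its change ran from -0.17 to 0.03.

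**Figure D2:**
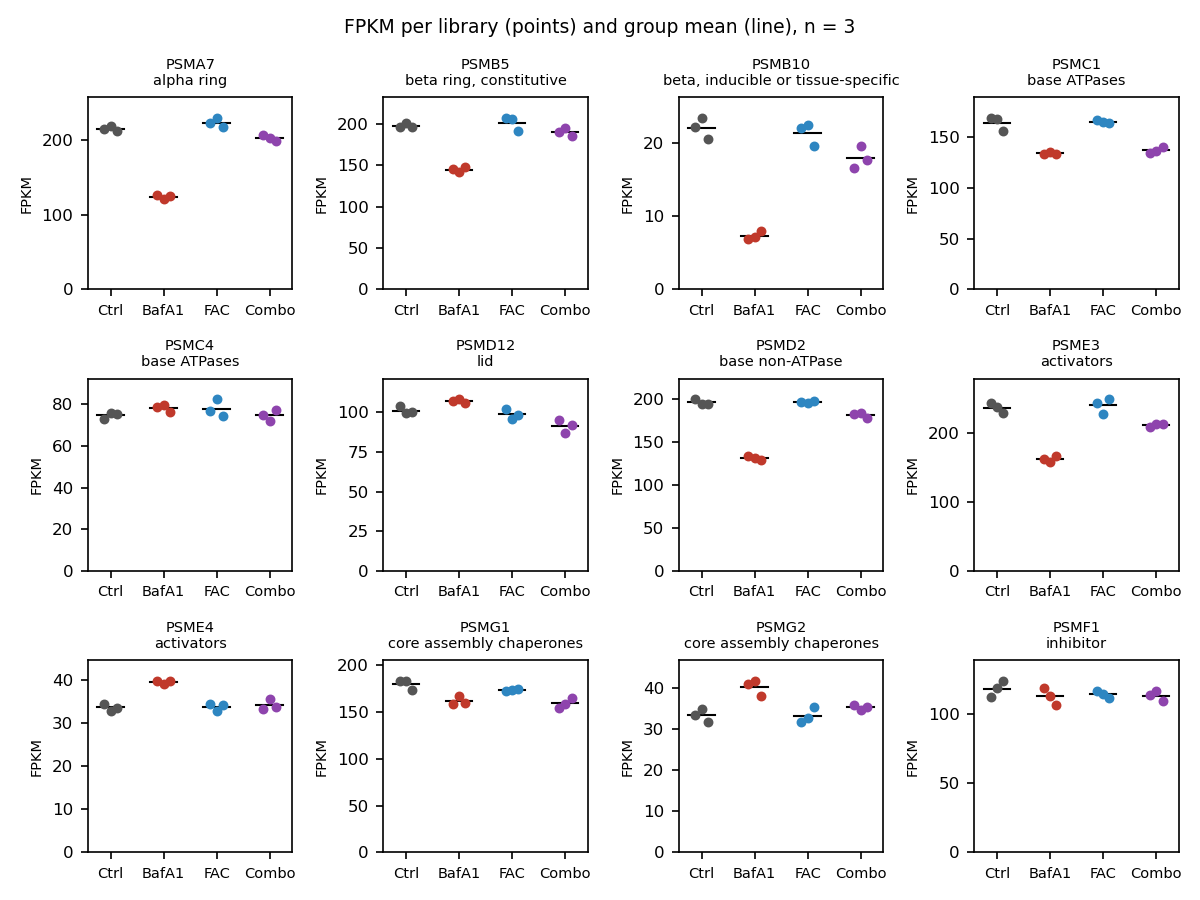
FPKM of 12 proteasome genes in each of the 12 libraries (points) with the group mean (line). The BafA1 points of PSMA7, PSMB5, PSMB10, PSMD2 and PSME3 sit below those of the other groups, and those of PSMG2 and PSME4 sit above.

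Summed over roles, the core lost more than the cap. The 19 core entries added up to 3265, 3229 and 3125 FPKM in Ctrl and 2216, 2290.1 and 2225 in BafA1, a mean change of -30.0%. The 17 cap genes added up to 2257, 2225 and 2211 FPKM in Ctrl and 1912, 1939 and 1883 in BafA1, a mean change of -14.3%. The ratio of core to cap was 1.45, 1.45 and 1.41 in Ctrl and 1.16, 1.18 and 1.18 in BafA1. It was 1.43, 1.44 and 1.44 in FAC and 1.42, 1.43 and 1.42 in Combo, so only the BafA1 libraries stood apart among the 4 groups. Chaperones fell by 16.1% and activators with the inhibitor by 21.4% in summed FPKM. These sums are descriptions without a test.

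**Figure D3:**
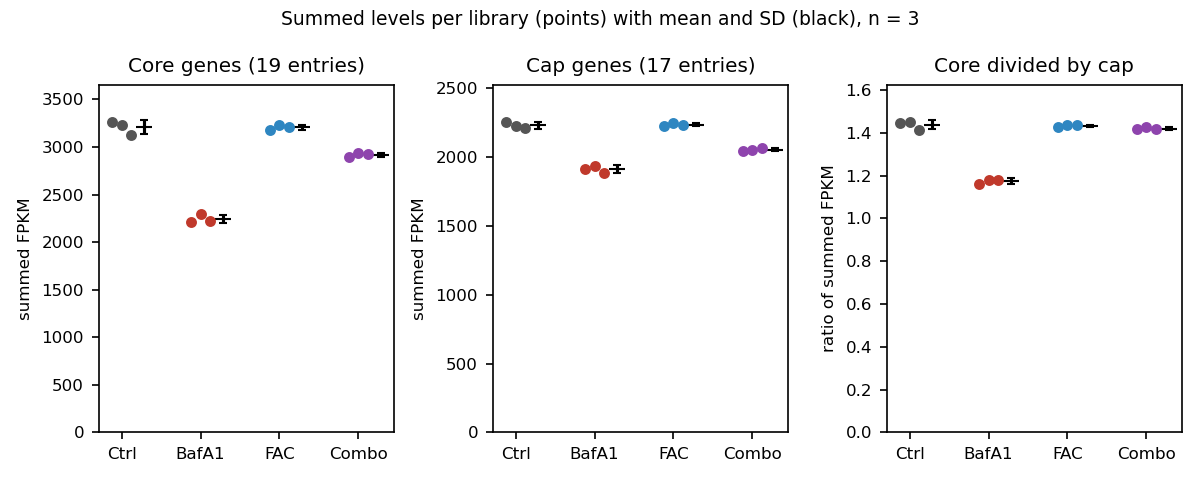
Summed FPKM of the core genes and of the cap genes, and the ratio of the sums, in each library, with mean and SD of 3 libraries in black. The ratio is 1.16 to 1.18 in BafA1 and at least 1.41 in every library of the other groups.

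FAC alone left the proteasome genes without a call. In FAC against Ctrl, limma called 0 of 43 higher and 0 lower, against 4.72% and 4.84% of all genes, and the changes ranged from -0.09 to 0.08. Those shares include entries at 0 on one FAC side, which made up 510 of the 1308 calls. Without them, a count added after seeing the data, 3.06% of genes were higher and 3% lower. The same 510 entries were called in Combo against BafA1 and in Combo against Ctrl. PSMD9 had the largest change, from 48.5, 48.3 and 48.3 FPKM to 45.5, 47.2 and 43.5 (95% interval -0.16 to -0.02), and it was called lower when the second FAC library was left out. The summed core was 3178, 3226 and 3211 FPKM in FAC, within the range of the Ctrl libraries. At an unadjusted p under 0.05, limma gave 2 of 43 lower, PSMD9 and PSMA5, and 0 higher. The share of all genes at that threshold was not counted.

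With FAC present, BafA1 changed most of these genes less, but not all. In Combo against FAC, 23 of 43 were lower and 0 higher, against 9.49% and 9.76% of all genes, with a median change of -0.12 against 0.00 over all genes. At an unadjusted p under 0.05, 0 were higher and 31 lower, and the share of all genes at that threshold was not counted. All 3 Combo libraries lay below all 3 FAC libraries for 29 genes, against 18.1% of all genes. Alpha ring genes were called lower in 6 of 7 cases, constitutive beta genes in 1 of 7 and cap genes in 11 of 17. The constitutive beta genes changed by -0.16 to -0.02, and 5 of the 7 had all Combo libraries below all FAC libraries. The difference between those classes was not tested. The largest changes were in PSMC1, an ATPase of the base, from 167, 164 and 164 FPKM to 135, 136 and 140 (-0.27 ± 0.032, limma adjusted p = 0.000169), and in PSMA6, from 207, 200.04 and 216 FPKM to 167, 180 and 174 (-0.26 ± 0.045, limma adjusted p = 0.00215). PSMB10 went from 22.0, 22.4 and 19.5 FPKM to 16.5, 19.5 and 17.7, with the ranges touching (-0.24 ± 0.077, limma adjusted p = 0.0475). PSMC6, from 108, 109 and 116 FPKM to 95.6, 99.1 and 93.9, and PSMA2, from 229.6, 245 and 253 FPKM to 212, 210.1 and 209, both fell by 0.20 without overlap. PSMG2 and PSME4, which rose without FAC, were at 0.08 and 0.01 here, with 95% intervals from -0.03 to 0.19 and from -0.07 to 0.09. PSMC2 (-0.02 without FAC, -0.12 with it) and PSMD14 (0.06 and -0.12) were called lower with FAC but not without it. Both of those calls were lost without the first Combo library and under TPM scaling.

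The count of 23 rested on single libraries for some genes. It was 16 without the second FAC library and 17 without the first Combo library, and the PSMB10 and PSMB6 calls were among those lost in both cases. Quantile normalization left 14 of the 23 calls, losing PSMA7 and PSME3 among others, and TPM scaling left 17, without PSMB10 and PSMB6. TPM scaling also moved the calls over all genes in this comparison from 1336 higher and 1298 lower to 1541 higher and 957 lower.

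Set beside the BafA1 libraries, Combo was higher for 30 proteasome genes and lower for 4, against 38.8% and 29.1% of all genes, with all Combo libraries above all BafA1 libraries for 30 genes (40.4% of all genes). This comparison shares its BafA1 libraries with BafA1 against Ctrl and its Combo libraries with Combo against FAC. Core genes were higher in 15 of 15 cases, led by PSMB10 at 1.18 ± 0.077, PSMA7 at 0.70 ± 0.029 and PSMB6 at 0.59 ± 0.049. The PSMA6 call was lost under the 3 other scalings and the PSMA1 call under quantile normalization. In Combo, PSMA7 stood at 207, 203 and 199 FPKM and PSMB6 at 137, 142 and 149, close to but below their Ctrl values. PSMB3, at 216, 243 and 242 FPKM in Combo against 166, 167 and 159 in BafA1, was 0.51 ± 0.052 higher. PSMG4, at 17.5, 18.01 and 17.98 FPKM in Combo, was 0.48 ± 0.065 higher. The 4 lower genes were PSMD12 (-0.22), PSMD14 (-0.21), PSME4 (-0.21) and PSMG2 (-0.18). The split of 30 and 4 became 27 and 7 with median-of-ratios scaling, 27 and 10 with quantile normalization and 27 and 9 with TPM scaling.

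The difference between the BafA1 change with FAC and that without it, the interaction, was tested for each gene. It was positive, meaning a smaller fall with FAC, in 28 genes and negative in 3, against 29.5% and 20.6% of all genes. Core genes were positive in 15 of 15 cases, from 0.16 for PSMA1 to 1.22 ± 0.108 for PSMB10 (limma adjusted p = 2.89e-06). After PSMB10 came PSMA7 (0.65), PSMB6 (0.52), PSME2 (0.50) and PSMB3 (0.49). Cap genes were positive in 7 of 17 cases and negative in 2, PSMD12 and PSMD14, and PSME4 was the other negative gene. The PSMA6 call was lost in each of 8 fits that left out 1 library (Ctrl 1 or 2, BafA1 1 or 3, FAC 1 or 2, Combo 2 or 3), and the PSMA1 call in 4 of them (Ctrl 1 or 2, BafA1 3, FAC 1). The split of 28 and 3 became 23 and 7 with median-of-ratios scaling, 25 and 9 with quantile normalization and 24 and 7 with TPM scaling, while over all genes 4032 and 2818 became 3272 and 3463 with the first of these.

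For 6 genes, 5 of them in the cap, the 2 falls were not told apart. PSMC1, PSMC5, PSMC6, PSMD7, PSMD11 and the chaperone PSMG1 were called lower in BafA1 against Ctrl and in Combo against FAC, with no call for the interaction. PSMC1 had 169, 168 and 156 FPKM in Ctrl and 133, 135 and 133 in BafA1, and its interaction of 0.03 had a 95% interval from -0.07 to 0.12. For PSMC5 that interval ran from -0.06 to 0.11, for PSMD7 from -0.12 to 0.05, for PSMD11 from -0.14 to 0.12 and for PSMC6, which changed by -0.32 without FAC and -0.20 with it, from 0.01 to 0.22 (limma adjusted p = 0.0614). PSMC5, PSMD7, PSMD11 and PSMG1 lost their calls in BafA1 against Ctrl under the 3 other scalings. PSMD7 then had a called negative interaction under each of them, and PSMC5 under quantile normalization only. The PSMC1 value is uncertain, because a processed copy, PSMC1P5, was listed at 90.4 to 152 FPKM and reads of near-identical copies can be split between them. Among the 35 genes that fell without FAC, 15 fell also with FAC but less, and 13 had a positive interaction and no call with FAC, PSMB5 and PSMB7 among them.

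Over the 37 genes called in BafA1 against Ctrl, the change with FAC had a median of 0.27 of the change without it, against 0.17 over the 9180 genes called in that comparison. In Combo against Ctrl, 24 proteasome genes were lower and 0 higher, against 16.6% and 16.2% of all genes. At an unadjusted p under 0.05, 31 were lower and 0 higher, again without a count over all genes at that threshold. The 24 included all 7 alpha ring genes, from -0.26 to -0.09. They also included 1 of the 7 constitutive beta genes, whose changes ran from -0.10 to -0.01. The summed core was 2891, 2934 and 2922 FPKM in Combo. Against Ctrl the mean of that sum decreased by 9.07%, and that of the summed cap decreased by 7.97%.

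**Figure D4:**
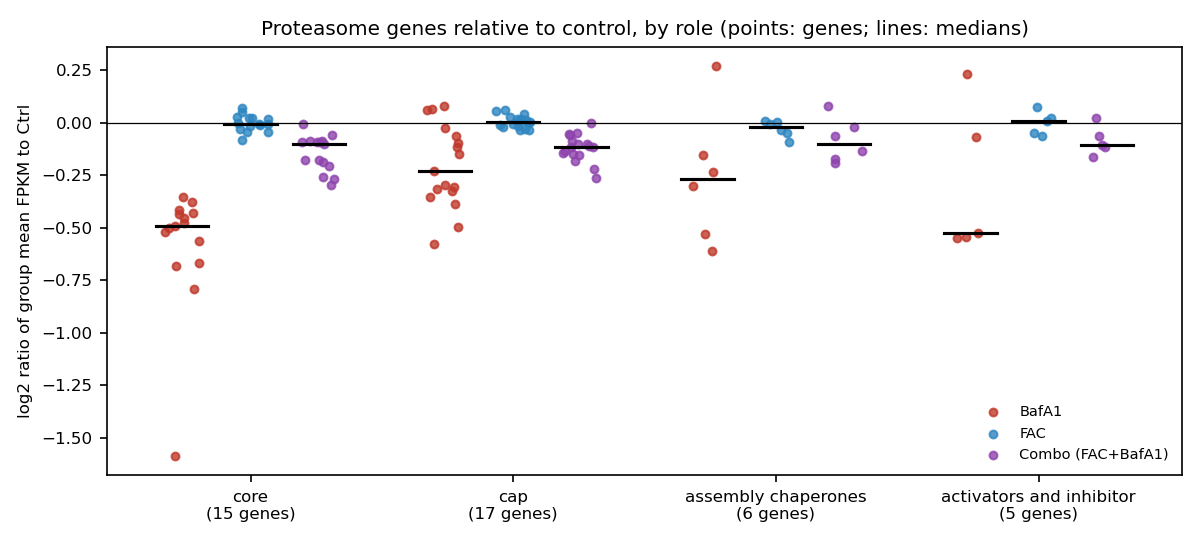
Log2 ratio of the group mean FPKM to the Ctrl mean for each tested proteasome gene (points) by role, with the median as a line. FAC points lie around 0, Combo points mostly below 0, and most BafA1 points further below. PSMB10 is the lowest point, and 2 BafA1 points, PSMG2 and PSME4, lie well above 0.

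Other genes that work with the proteasome moved in both directions. On a list of 13 partners, 6 rose and 4 fell with BafA1, against 29.5% and 37.6% of all genes. POMP, which chaperones the maturing core, went from 117 ± 2.14 (SD, n = 3) to 74.5 ± 3.84 FPKM (-0.65 ± 0.039), and SEM1, a small lid subunit named outside the PSM scheme, from 185 ± 11.5 to 118 ± 4.44 FPKM (-0.64 ± 0.043). UCHL5, a cap-bound deubiquitinase, rose by 0.37 and AKIRIN2, which helps import proteasomes into the nucleus, by 0.76. The proteasome-binding proteins ZFAND5 and ZFAND2A both rose by 0.69, and ECPAS, a proteasome adaptor, by 0.57. With FAC, 0 of the 13 were higher and 3 were lower, against 9.76% and 9.49% of all genes, namely PAAF1 (-0.26), TXNL1 (-0.15) and USP14 (-0.12).

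Of 10 genes of the NRF1 axis, 4 rose and 2 fell in BafA1 against Ctrl, where 29.5% and 37.6% of all genes did. NFE2L1 itself was at 57.7 ± 1.78 FPKM in Ctrl and 59.5 ± 2.50 in BafA1 and was not called (limma adjusted p = 0.35). The small MAF partners of that factor rose, MAFF by 3.21, MAFG by 1.67 and MAFK by 1.43, and so did SYVN1, an ER ubiquitin ligase, by 1.57. UFD1 and VCP, which extract proteins from the ER, fell by 0.23 and 0.14. In Combo against FAC the same 4 genes were higher and 1 was lower, against 9.76% and 9.49% of all genes. MAFF was higher by 1.01, MAFK by 0.94, MAFG by 0.91 and SYVN1 by 0.46. NGLY1, which activates NRF1 by removing its glycans, fell by 0.23. Among ubiquitin genes and activating enzymes, UBA6 rose by 0.27, and UBB, RPS27A and UBA1 fell by 0.18, 0.23 and 0.36. Among shuttle receptors, which carry ubiquitin-tagged proteins to the proteasome, UBQLN1 rose by 0.15 and UBQLN2 fell by 0.19.

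The 48 genes are spread over 17 chromosomes, with 8 on chromosome 14 and 7 on chromosome 17 (GENCODE release 44, GRCh38). PSME1 (chr14:24136163-24138967, plus strand) and PSME2 (chr14:24143362-24147570, minus strand) lie 4394 bases apart. They changed by like amounts in BafA1 against Ctrl, -0.51 and -0.54, but by -0.18 and -0.04 in Combo against FAC. PSMB10 spans chr16:67934506-67936864 on the minus strand. Another entry at a mean of 1 FPKM or more overlaps 18 of the genes, on the same strand for 4. PSMC2 shares a strand with PMPCB, listed at 74.3 FPKM, and whether counting used the strand is not given in the sources used here.

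Promoter sequences from RefSeq (GRCh38.p14), 250 bases before to 50 after each gene's start, were matched for 42 of the 48 genes and searched on both strands for 4 motifs. CCAAT, the NF-Y box, was in 19 of 42 (45.2%), against 35.7% of 27305 promoters and 37.3% of those of tested genes. TGACNNNGC, the core of the antioxidant response element that NRF1 can bind, was in 13 of 42 (31.0%), against 13.6% of all promoters and 15.2% of those of tested genes. GAANNTTC, the heat shock element core, was in 0 of 42 (6.87% of all), and TGATGNAA, a C/EBP-ATF element, in 1 of 42 (3.67% of all). Each motif was counted on its own, whether or not it overlapped another. Among genes that were tested and had a promoter entry, the antioxidant core was in 1 of 11 core genes and 4 of 16 cap genes. A match describes letters only.

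Stretches just before the annotated start of 3 genes are shown because they cover the gene with the largest fall and a pair of core genes with CCAAT, with the searched motifs in capitals. They are PSMB10 (chr16:67936865-67936970, minus strand), PSMA5 (chr1:109426449-109426568, minus strand) and PSMB3 (chr17:38752621-38752740, plus strand), from the RefSeq promoter table (GRCh38.p14). The PSMB10 stretch holds none of the searched letters, PSMA5 holds CCAAT at 2 places, and PSMB3 holds CCAAT at 2 places with 1 antioxidant core further from the start.
PSMB10: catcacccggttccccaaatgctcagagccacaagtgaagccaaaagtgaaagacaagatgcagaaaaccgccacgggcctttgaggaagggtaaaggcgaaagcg
PSMA5: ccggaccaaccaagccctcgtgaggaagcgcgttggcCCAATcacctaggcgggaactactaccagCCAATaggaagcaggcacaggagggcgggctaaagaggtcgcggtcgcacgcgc
PSMB3: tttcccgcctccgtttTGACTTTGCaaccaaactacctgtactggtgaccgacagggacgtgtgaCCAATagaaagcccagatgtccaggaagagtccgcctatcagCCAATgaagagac

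Antioxidant cores of 6 genes are shown with their flanking bases, since both genes that rose with BafA1, PSMG2 and PSME4, hold one. Each is read on the strand where it spells the motif, which is in capitals. The PSMC4 core lies 27 bases after the RefSeq start, and the PSMG2 site lies inside the GENCODE span of its gene. A further PSMD3 core, after the start, is not shown. The positions (GRCh38.p14) are chr18:12658689-12658717 for PSMG2 (plus), chr2:53971009-53971037 for PSME4 (plus), chr19:39971182-39971210 for PSMC4 (minus), chr17:67366724-67366752 for PSMD12 (minus), chr17:39980760-39980788 for PSMD3 (plus) and chr14:24136098-24136126 for PSME1 (plus).
PSMG2: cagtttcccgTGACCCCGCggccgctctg
PSME4: gctctgctggTGACGCTGCagccgccggg
PSMC4: tcctccatagTGACCAAGCcggcctctgt
PSMD12: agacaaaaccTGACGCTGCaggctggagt
PSMD3: tcccctttgtTGACTCGGCcatcggcctg
PSME1: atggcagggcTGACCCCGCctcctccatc
PSMC4 and PSMD12 were not called with BafA1, while PSMD3 and PSME1 fell, so genes that share these letters differed in direction. Of the genes that fell, 7 of 30 with a promoter entry held the core, as did 2 of 5 that were not called and both that rose, counts that were looked at after the calls were known.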

How the data were processed

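The 12 HEK293T libraries came from a stranded mRNA preparation, as the labels' protocols state. The authors deposited 1 table of FPKM values per gene and library, with 2 decimals. STAR, RSEM and GRCh38 are named in the submitters' processing notes, and for their versions, the annotation and the strand setting the sources used here give nothing. Depth is only estimated, so no interval from counts is given.

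Genes averaging 1 FPKM or more were kept, and log2(FPKM + 1) was fitted with limma 3.58.1 (R 4.3.3), with 1 mean per group, an intensity trend and Benjamini-Hochberg adjustment over 13682 genes, in 6 comparisons. Fold changes on this scale understate the change of low genes. On simulated data for BafA1 against Ctrl with 200 of 13682 genes changed, log2 changes of 0.25, 0.5 and 1 were recovered for 56, 172 and 195 genes, with 5, 11 and 9 false calls. In the data, 9180 genes were called in that comparison, so these recoveries do not give the recovery there. The rule for naming took the 5 called genes with the largest change in each comparison other than Combo against Ctrl, the most changed gene of each class with BafA1, and set lists of catalytic, inducible, chaperone and activator genes with PSMD4 and PSMD14. Other genes named were chosen after their values were seen. The genes and lists were chosen with earlier results of these data known. Some genes of the wider lists are not reported here.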

Additional observations from a re-analysis of the deposited data

Results flagged for a closer look

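The BafA1 change differed between cells with and without FAC for 31 of 43 proteasome genes, by limma's test of the interaction with Benjamini-Hochberg adjustment over all genes tested. Values are the log2 change with FAC minus that without it. In the alpha ring they were PSMA1 0.16, PSMA2 0.36, PSMA3 0.35, PSMA4 0.49, PSMA5 0.31, PSMA6 0.18 and PSMA7 0.65. In the beta subunits they were PSMB1 0.34, PSMB2 0.38, PSMB3 0.49, PSMB4 0.28, PSMB5 0.37, PSMB6 0.52, PSMB7 0.34 and PSMB10 1.22. Among cap genes the positive values were PSMC3 0.21, PSMD1 0.21, PSMD2 0.45, PSMD3 0.18, PSMD6 0.17, PSMD8 0.42 and PSMD13 0.20, and among chaperones and activators PSMD9 0.25, PSMD10 0.45, PSMG4 0.47, PSME1 0.32, PSME2 0.50 and PSME3 0.36. The negative values were PSMD12 -0.19, PSMD14 -0.18 and PSME4 -0.22, in genes that were level or higher with BafA1 alone. PSMA1 and PSMA6 lost their calls under each of the 3 other scalings, PSMC3 under median-of-ratios scaling and quantile normalization, and PSMD3 and PSMD6 under median-of-ratios and TPM scaling.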

How the results depend on the processing

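Alternatives were a pseudocount of 0.1, no filter, a minimum of 5 FPKM, no intensity trend, median-of-ratios scaling, quantile normalization, a replicate block, fitting the 2 groups alone, leaving out each library, and TPM scaling, which was added after seeing the data. Over 2396 values of single proteasome genes, 2264 kept direction and side of the threshold, 48 lost and 23 gained a call, and 61 changed sign. All that changed sign were uncalled as reported except PSMG1 in BafA1 against Ctrl, and the cause was not tested. Counts moved by over 1.5 times under median-of-ratios, quantile and TPM scaling respectively for genes higher in BafA1 against Ctrl (2 to 5, 6 and 5), lower in Combo against BafA1 (4 to 7, 10 and 9) and with a negative interaction (3 to 7, 9 and 7), and for genes lower in Combo against FAC under quantile normalization (23 to 14). With each library left out in turn, BafA1 against Ctrl gave 35 to 36 lower and 2 to 3 higher, FAC against Ctrl 0 to 1 lower, Combo against BafA1 29 to 30 higher and 4 to 5 lower, Combo against FAC 16 to 24 lower, Combo against Ctrl 21 to 26 lower, and the interaction 26 to 29 positive and 3 to 4 negative.

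The replicate block gave 21 genes lower in Combo against FAC in place of 23. Same-numbered libraries did not pair, since 1 of 18 correlations of their deviations was over 0.1 (-0.074 to 0.138). Values that changed sign follow, as log2 changes. In BafA1 against Ctrl, other scalings gave PSMD4 0.0102 (median-of-ratios) and 0.1255 (quantile) and 0.0373 (TPM), PSMG1 0.0012 (quantile), PSMF1 0.0038 (median-of-ratios) and 0.0386 (quantile) and 0.0308 (TPM). In FAC against Ctrl, other scalings gave PSMB7 0.0076 (median-of-ratios), PSMG2 0.0021 (median-of-ratios), PSMG3 -0.0033 (TPM). Leaving out 1 library in turn gave, in FAC against Ctrl, PSMB7 -0.0093 to 0.0101, PSMB10 -0.0918 to 0.0154, PSMD4 -0.0264 to 0.0075, PSMG2 -0.0501 to 0.0271, PSMG3 -0.0510 to 0.0666, PSMG4 -0.0548 to 0.0776, PSME3 -0.0021 to 0.0603, PSME4 -0.0087 to 0.0310. In Combo against BafA1, other scalings gave PSMD4 -0.0584 (median-of-ratios) and -0.1199 (quantile) and -0.0703 (TPM), PSMF1 -0.0610 (median-of-ratios) and -0.0696 (quantile) and -0.0730 (TPM). Leaving out 1 library in turn gave, in Combo against BafA1, PSMD4 -0.0129 to 0.0306, PSMG1 -0.0464 to 0.0015, PSMF1 -0.0360 to 0.0443. In Combo against FAC, other scalings gave PSMD4 0.0205 (quantile), PSMF1 0.0276 (quantile) and 0.0109 (TPM). Leaving out 1 library in turn gave, in Combo against FAC, PSME4 -0.0164 to 0.0303, PSMF1 -0.0335 to 0.0127. In Combo against Ctrl, other scalings gave PSMD4 0.0056 (quantile), PSMG4 0.0021 (TPM). Leaving out 1 library in turn gave, in Combo against Ctrl, PSMG4 -0.0824 to 0.04995, PSME4 -0.0075 to 0.0391. In the interaction, other scalings gave PSMD4 -0.0545 (median-of-ratios) and -0.1050 (quantile) and -0.0544 (TPM), PSMG1 -0.0483 (median-of-ratios) and -0.0649 (quantile) and -0.0483 (TPM), PSMF1 -0.0200 (median-of-ratios) and -0.0110 (quantile) and -0.0199 (TPM). Leaving out 1 library in turn gave, in the interaction, PSMD4 -0.00054 to 0.0429. Median-of-ratios scaling moved summed FPKM by more than 1 SD for the core in BafA1 (2315), FAC (3165) and Combo (2870.4), the cap in Ctrl (2190.1), BafA1 (1972), FAC (2208) and Combo (2021), the chaperones in BafA1 (388) and FAC (431), and activators with the inhibitor in Ctrl (475), BafA1 (393) and Combo (441). Over all genes in FAC against Ctrl, a minimum of 5 FPKM gave 202 higher and 200 lower calls of 9655 genes, in place of 646 and 662 of 13682, and no filter gave 2245 and 2241 of 36431. FPKM carries no counts, so the precision of low genes is unknown.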
